A study of Solanum tuberosum with 9 samples.

Results

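The most abundant messenger RNAs of stored potato tubers (Solanum tuberosum, cultivar Keshan), chosen by their measured levels, were 139 of the 34239 gene models measured. Among the 32917 models whose identifier starts with Soltu.DM, the 150 with the highest mean FPKM (a level per length of model and depth of library) over the 9 libraries were taken. Of these, 8 were dropped because the lowest day 0 library was at least 1.5 times the highest of the 6 libraries of day 40 in CPM (counts scaled to a common library total), and 3 because the lowest library of oil-treated tubers was at least 1.5 times the highest of the 6 control libraries. The 139 left are called the members. The libraries came from 3 groups of 3, namely tubers under fumigation with rosemary essential oil (REO, the volatile oil of rosemary) sampled at day 40, unfumigated control tubers sampled at day 40, and control tubers of day 0. All were commercially bought mature tubers, split into the control and fumigated lots when storage began and kept sealed at the same temperature and humidity. How many tubers went into a library is not stated in the labels. The p-values therefore measure only the spread between these libraries, which the series calls biological replicates.

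As background, a potato tuber is a swollen underground stem that stores starch and protein, and a small number of genes supply much of its messenger RNA. In potato the best known are those of patatin, the main storage protein, of proteinase inhibitors, which deter insects and microbes, and of the enzymes that build starch. During storage the dormant buds come out of rest and sprout, and the reserves are then drawn down. The deposited tables give identifiers without names, and 0 of them matched an entry of the RefSeq gene table of assembly SolTub_3.0. No role is therefore given to any member, tissue markers could not be checked, and no sequence is shown.

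Library totals ranged from 29330673 to 36901701 counts, and all 139 members had counts in all 9 libraries, the lowest being 1220 counts. Counting error is therefore small beside the differences between replicates. In 137 of the 139 the ratio of CPM to FPKM stayed within a factor of 1.1 over the 9 libraries, so both scales follow each other closely there. Control day 40 replicate 2 had counts in 26805 models, against 23747 to 25195 in the other 8 libraries. Without it, edgeR called 985 models between control day 40 and day 0, against 191 with it, so some of the values that turn on it are also given without it.

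The member at the top was Soltu.DM.09G002170 on chromosome 9 (the chromosome is read from the identifier). It was at 4741, 6041 and 6172 FPKM in REO tubers, at 8295, 4507 and 6185 FPKM in control tubers at day 40, and at 6753, 5997 and 14066 FPKM at day 0. It was the highest member in 8 of the 9 libraries, and the single value of day 0 replicate 3 lay far above the other 8. In control day 40 replicate 2 the highest member was Soltu.DM.08G001610, at 5418 FPKM.

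The second, Soltu.DM.01G049440 on chromosome 1, was at 3665, 3662 and 4168 FPKM in REO tubers, at 3923, 4461 and 3958 FPKM in control tubers at day 40, and at 3988, 3423 and 3844 FPKM at day 0. Its groups overlapped, and its highest library was 1.28 times its lowest in CPM. Soltu.DM.07G016220 on chromosome 7, the third, was at 1722, 2260 and 3246 FPKM with REO, at 3136, 4812 and 2586 FPKM in control tubers at day 40, and at 4629, 4856 and 5113 FPKM at day 0. The day 0 libraries lay together and above every REO library, whereas control day 40 replicate 2 reached the day 0 range in FPKM. With library totals adjusted for composition it did not, at 1290 CPM against 1385 CPM in day 0 replicate 1. Soltu.DM.08G001610 on chromosome 8, the fourth, was at 1974, 2527 and 6036 FPKM with REO, at 2093, 5418 and 2481 FPKM in control tubers at day 40, and at 3476, 3991 and 3825 FPKM at day 0. Here 1 library of each day 40 group lay above all of day 0 and the other 4 lay below it.

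The next 8 members had mean levels of 2734 to 3292 FPKM. Of these, Soltu.DM.05G025710 (chromosome 5) and Soltu.DM.07G027620 (chromosome 7) kept to 2650 to 3657 FPKM and to 2367 to 3125 FPKM over the 9 libraries. Soltu.DM.12G008280 on chromosome 12 was at 2992 ± 9.25 FPKM (SD, n = 3) with REO, at 3119 ± 565 FPKM in control tubers at day 40 and at 2486 ± 852 FPKM at day 0. Soltu.DM.07G025590 on chromosome 7 was at 3296 ± 190.5 FPKM with REO, 2857 ± 263 FPKM in control tubers at day 40 and 2049 ± 580.5 FPKM at day 0. The other 4 of these 8, Soltu.DM.03G023490, Soltu.DM.03G023510, Soltu.DM.03G023530 and Soltu.DM.03G023620, have neighbouring identifiers on chromosome 3 and varied more, as described with that run below.

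**Figure D1:**
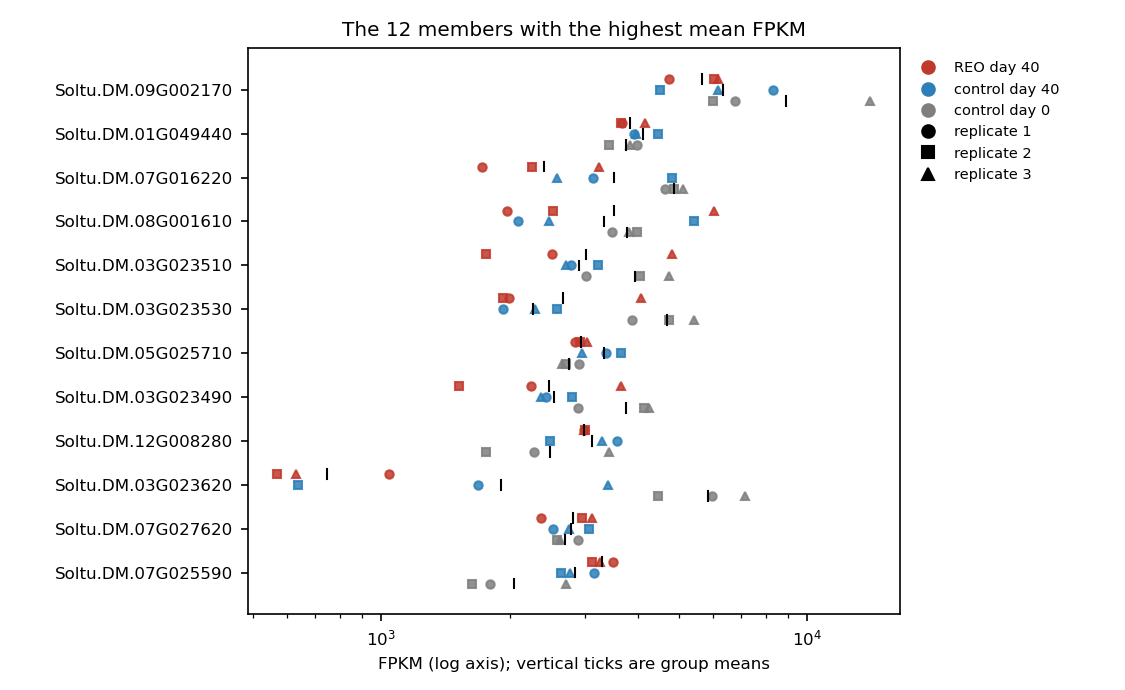
FPKM (log axis) of the 12 members with the highest mean, by library. Colours are groups, symbols are replicates and vertical ticks are group means. Soltu.DM.09G002170 reached 14066 FPKM in day 0 replicate 3, and Soltu.DM.03G023620 ran from 569 FPKM in an REO library to 7138 FPKM in a day 0 library.

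Below the top the levels fell off slowly. The first member averaged 6973 FPKM, the middle member 772 FPKM and the last 454 FPKM, and the median over all models with any FPKM was 3.41. Above 1000 FPKM lay 49 members, and 24 of them were above it in every library. The first 10 members made up 22.8% and the first 50 made up 63.7% of the members' summed FPKM. Of the 138 pairs of neighbours in the order of mean FPKM, only the first and second members had values over the 9 libraries that did not overlap (1 pair). Neighbours were not compared library by library, so this overlap cannot tell whether they keep their order within libraries.

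The order also differed between groups. Of the first 12 members by group mean, 7 were shared by all 3 groups. Ranked by group mean among all Soltu.DM models, 128 members were within the top 150 with REO, 132 in control tubers at day 40 and 123 at day 0, and 110 were within it in all 3. Within the top 150 of every single library were 80 members. Spearman correlations of FPKM across the 139 members, which are not independent replicates and share each library's depth, ran from 0.474 between day 0 replicate 3 and REO replicate 1 to 0.971 between day 0 replicates 1 and 2. Within groups they were 0.699 to 0.869 with REO, 0.534 to 0.922 in control tubers at day 40 and 0.847 to 0.971 at day 0.

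The members were short models. The ratio of count to FPKM gives a length scale, whose median was 1031 bases over the members with quartiles of 796 and 1753, against 1986 bases over the other 10946 models with a mean of at least 10 CPM. FPKM divides by length and chose the members, so this difference is a description only. It also sets the order at the top. Soltu.DM.09G002170 had a length scale of 270.2 bases and a mean of 1885 CPM, and Soltu.DM.07G027620, the eleventh by FPKM, had 2570 bases (2569.8) and 7101 CPM. By mean CPM in place of FPKM, 95 of the 139 would be among the first 150 Soltu.DM models. Members came from all 12 chromosomes, with 21 on chromosome 1 and 16 each on chromosomes 3 and 6, or 15.1%, 11.5% and 11.5% of them, against 12.8%, 9.72% and 8.89% of all Soltu.DM models.

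Together the members held a large share of each library. Their summed share of the counts was 16.0%, 17.9% and 20.5% with REO, 17.8%, 20.6% and 17.8% in control libraries of day 40, and 19.8%, 19.5% and 22.6% at day 0. The groups overlapped, and the means were 18.2% ± 2.27, 18.7% ± 1.63 and 20.6% ± 1.72 (SD, n = 3 each). In whole tuber tissue, fewer cells of a type and less RNA per cell cannot be told apart. The 8 rows dropped for a high day 0 level held 1.11% ± 0.288 with REO, 1.01% ± 0.161 in control tubers at day 40 and 4.17% ± 0.652 at day 0, a difference that the rule itself fixed. Models added by the submitters are not members, but 6 of them had a mean FPKM above that of the last Soltu.DM model taken. All 1322 of them held 12.5%, 7.004% and 5.08% of the counts with REO, 6.76%, 4.16% and 7.54% in control libraries of day 40, and 4.52%, 3.83% and 6.802% at day 0. The library with the largest such share, REO replicate 1, was also the one with the smallest share held by members. Whether one bears on the other was not tested.

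**Figure D2:**
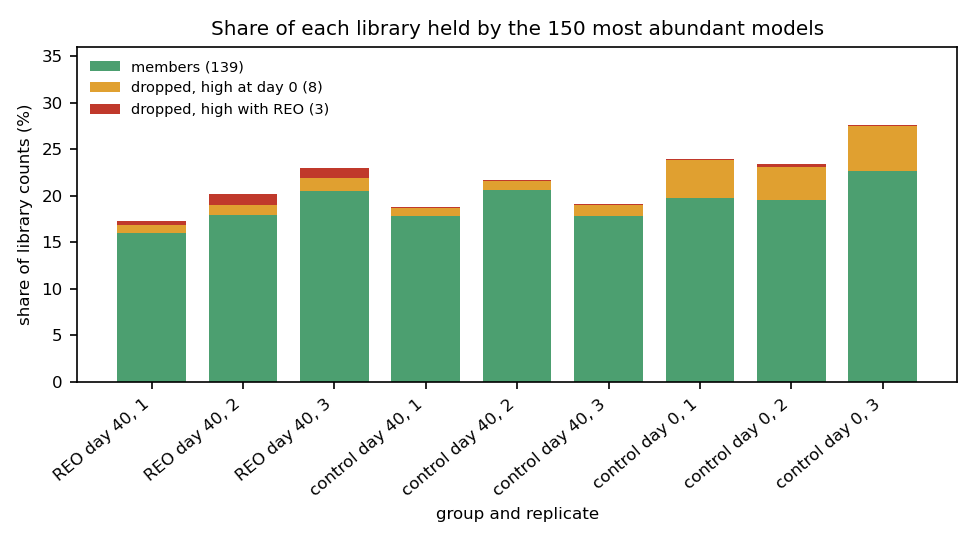
Share of each library's counts (%) held by the 139 members and, stacked on them, by the 8 and 3 dropped rows. The members' share runs from 16.0% in REO replicate 1 to 22.6% in day 0 replicate 3, and the groups overlap.

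Between libraries the members were spread over a wide range of behaviours. In CPM, the highest library was under 2 times the lowest in 58 members, 2 to 4 times in 62 and at least 4 times in 19, of which 8 reached at least 10 times. The median ratio was 2.29, and that of the other 10946 models with a mean of at least 10 CPM was 1.88. Under 2 times were 41.7% of members and 57.4% of the other models, and at least 4 times were 13.7% and 7.67%. Within groups, the median SD on a log2 scale was 0.20 with REO, 0.34 in control tubers at day 40 and 0.39 at day 0 for the members. It was 0.15, 0.25 and 0.24 for 10937 other models, which passed the low-count filter and had a mean of at least 10 CPM. The CPM of both sets were scaled here with TMM factors, which adjust library totals for composition.

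The steadiest member was Soltu.DM.10G027530 on chromosome 10, at 424, 529 and 477 FPKM with REO, 444, 466 and 494 FPKM in control tubers at day 40, and 489.5, 445 and 519 FPKM at day 0. Its highest library was 1.24 times its lowest in CPM. Soltu.DM.07G020660 on chromosome 7 followed at 1.27 times, with 638 to 689 FPKM in REO libraries, 678 to 792 FPKM in control libraries of day 40 and 608 to 683 FPKM at day 0. Soltu.DM.01G049440, the second most abundant member, was the third steadiest.

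The widest range was that of Soltu.DM.12G007230 on chromosome 12, at 39.4 times. It was at 527, 2381 and 1793 FPKM with REO, at 60.3, 102 and 369 FPKM in control tubers at day 40, and at 917, 953 and 1981 FPKM at day 0. All 3 control libraries of day 40 lay below the other 6. Ranked by group mean among all Soltu.DM models it was in place 29 with REO, 482 in control tubers at day 40 and 50 at day 0. Soltu.DM.04G002790 on chromosome 4 ranged over 32.0 times and is described with its comparison. Soltu.DM.10G018840 on chromosome 10, with a range of 24.04 times, was at 269.8, 1583 and 958 FPKM with REO, at 169, 969 and 66.8 FPKM in control tubers at day 40, and at 144, 362 and 124.4 FPKM at day 0. Its groups overlapped. Its second highest value came from control day 40 replicate 2 in FPKM and from REO replicate 3 in TMM-scaled CPM. Of the 19 members with a range of at least 4 times, 9 were highest in day 0 replicate 3 and 8 were lowest in REO replicate 1.

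Much of the variation followed single libraries. With TMM-scaled CPM, day 0 replicate 3 was the highest of the 9 libraries for 82 of the 139 members (59.0%) and for 25.4% of the 10937 other models. It was the lowest for 4 members (2.88%) and for 26.2% of the other models. Its median deviation from a member's own mean was 0.55 on the log2 scale, whereas day 0 replicates 1 and 2 stood at 0.06 and -0.10, and the other models in replicate 3 at 0.01. It was at least 1.5 times both other day 0 libraries in 59 members (42.4%) and in 7.28% of the other models. REO replicate 1 was the lowest library for 39 members (28.1%) and for 9.98% of the other models, with a median deviation of -0.17. With CPM by library total alone, the counts were 61 members highest in day 0 replicate 3 and 50 lowest in REO replicate 1. The TMM factor of day 0 replicate 3, 0.871, was the smallest of the 9, which reach 1.097. With TMM-scaled CPM, control day 40 replicate 2 was the highest library for 12 members (8.63%) and for 12.3% of the other models. It was the lowest for 29 members (20.9%) and for 18.0% of the other models. Day 0 replicate 2 was likewise the lowest for 29 members (20.9%), and for 11.3% of the other models.

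**Figure D3:**
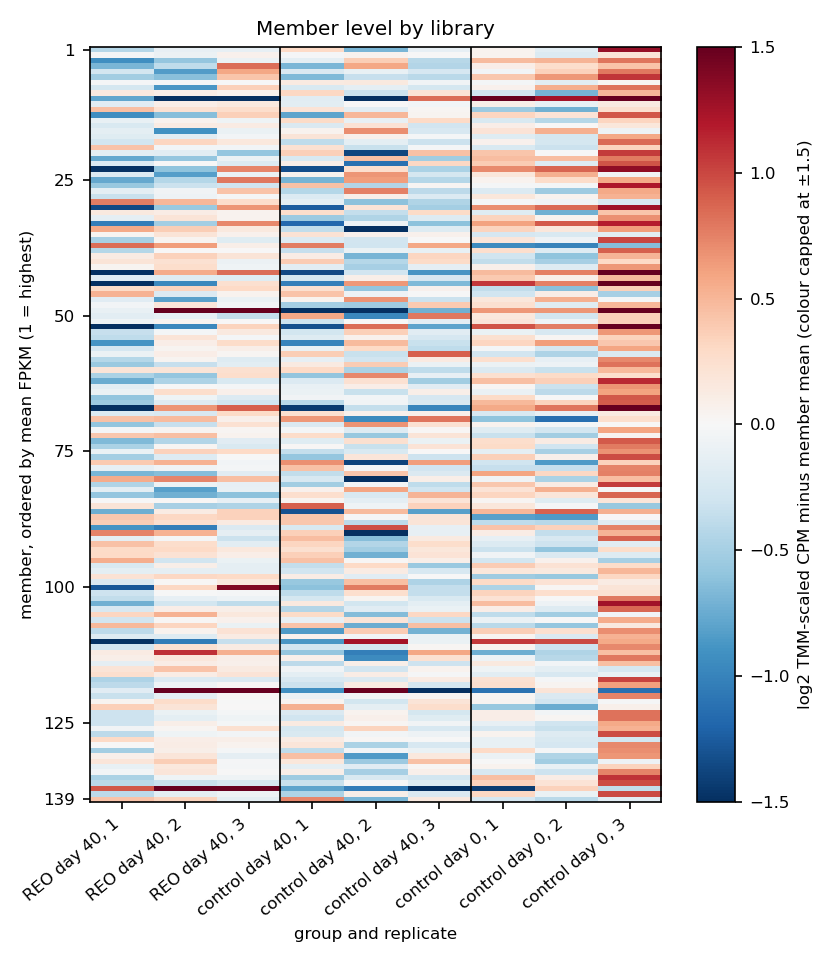
Level of each member in each library as log2 TMM-scaled CPM minus the member's mean over the 9 libraries, with members ordered by mean FPKM from top to bottom and vertical lines between groups. The column of day 0 replicate 3 is the highest of the 9 in 82 members, at all levels of abundance.

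Some members had neighbouring identifiers, which follow the order of models along a chromosome. Runs of 3 or more members, with identifier numbers differing from the next by at most 100, numbered 6 and held 25 members, and 10 pairs held 20 more. The labels do not say how reads of near-identical models were counted, so the division of reads among neighbours that are copies of one another is uncertain.

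In 1 run the members moved in an almost fixed ratio. The 4 members from Soltu.DM.03G007710 to Soltu.DM.03G007760 on chromosome 3 summed to 4656, 3005 and 5170.4 FPKM with REO, 5763, 9532 and 4606 FPKM in control tubers at day 40, and 6114, 7968 and 4551 FPKM at day 0. Control day 40 replicate 2 was the highest and REO replicate 2 the lowest, and the groups overlapped. The level of Soltu.DM.03G007720 was 0.461 to 0.522 times that of Soltu.DM.03G007710 over the 9 libraries, although their sum varied 3.17 times. The members scattered around the run's common pattern with an SD of 0.03 on the log2 scale, and the pattern itself had an SD of 0.48 between libraries.

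The run of 6 members from Soltu.DM.03G023490 to Soltu.DM.03G023620 on chromosome 3 was the most abundant. It summed to 8748, 7565 and 17576 FPKM with REO, 9948, 12687 and 12725 FPKM in control tubers at day 40, and 20059, 22279 and 27231 FPKM at day 0. In this sum every library of day 0 lay above the 6 of day 40. Among single members of the run, that held in FPKM for Soltu.DM.03G023620 alone, the member nearest to being dropped for a high day 0 level. In each other member of the run, REO replicate 3 lay above the lowest day 0 library in FPKM. In TMM-scaled CPM it did not in Soltu.DM.03G023520, at 1241 CPM against 1269 CPM in day 0 replicate 1. A seventh row between the members of this run, Soltu.DM.03G023580, was dropped from the members by the rule for a high day 0 level. Within the run Soltu.DM.03G023490 held 0.759 to 1.02 times the level of Soltu.DM.03G023510, but Soltu.DM.03G023500 ranged from 0.191 to 0.748 times it and Soltu.DM.03G023620 from 0.131 to 1.98 times. The members of this run thus differed in their pattern over libraries, with an SD of 0.62 around the common pattern on the log2 scale.

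The run of 4 from Soltu.DM.08G001520 to Soltu.DM.08G001610 on chromosome 8 summed to 4302, 5849.8 and 13345 FPKM with REO, 4789, 12776 and 6448 FPKM in control tubers at day 40, and 8379.7, 9243 and 10343 FPKM at day 0. REO replicate 3 and control day 40 replicate 2 stood above all day 0 libraries and the other 4 libraries of day 40 below them. The run of 4 from Soltu.DM.09G025840 to Soltu.DM.09G025920 on chromosome 9 had the widest range, 13.2 times, with 766, 3072 and 4750.1 FPKM with REO, 1311, 4228 and 1784 FPKM in control tubers at day 40, and 5234, 5298 and 10077.5 FPKM at day 0. In this sum all day 0 libraries lay above all of day 40, but in FPKM this held in no single member of the run. In Soltu.DM.09G025840 and Soltu.DM.09G025850, control day 40 replicate 2 lay above the lowest day 0 library in FPKM. REO replicate 3 did so in Soltu.DM.09G025890 and Soltu.DM.09G025920. In TMM-scaled CPM the day 0 libraries of Soltu.DM.09G025850 did lie above all of day 40. The nearest values were 993 CPM in day 0 replicate 2 and 923 CPM in control day 40 replicate 2. Within the run Soltu.DM.09G025920 stayed at 0.631 to 0.725 times Soltu.DM.09G025890, whereas Soltu.DM.09G025840 ranged from 0.277 to 1.73 times it.

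The remaining 2 runs, both on chromosome 6, varied less. The 4 members from Soltu.DM.06G002740 to Soltu.DM.06G002880 summed to 1705 to 2288 FPKM in REO libraries, 2176 to 2923 FPKM in control libraries of day 40 and 2288 to 3687 FPKM at day 0. The 3 from Soltu.DM.06G005570 to Soltu.DM.06G005680 summed to 2392 to 2583 FPKM with REO, 2274 to 3136 FPKM in control tubers at day 40 and 2833 to 3235 FPKM at day 0. Over all 29 pairs of members next to each other in runs and pairs, the ratio of their levels changed by a median of 1.48 times between its lowest and highest library, and by under 1.5 times in 15 pairs.

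**Figure D4:**
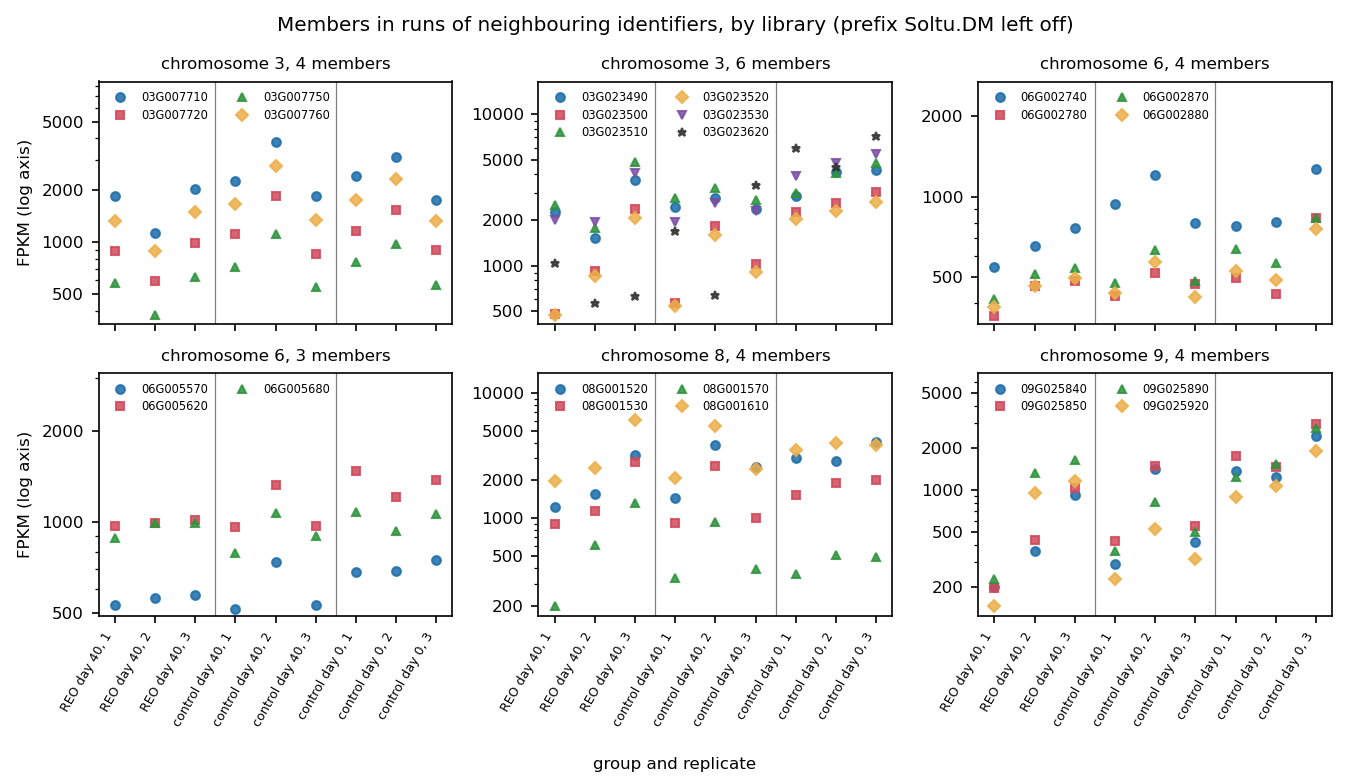
FPKM (log axis) by library of the members in the 6 runs of neighbouring identifiers, 1 symbol per member, with vertical lines between groups. In the run of 4 on chromosome 3 the members keep their ratio from library to library, and in the run of 6 on the same chromosome Soltu.DM.03G023620 changes place, from 569 FPKM in an REO library to 7138 FPKM in a day 0 library.

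The 3 group comparisons were fitted over all 22638 models that passed a low-count filter, all 139 members among them. The rule that chose the members used the levels of these same groups, so the counts below describe the members and are read as nothing more. In REO against control tubers at day 40, which asks what the oil changed at equal storage time, 0 members were called at an adjusted p under 0.05 (edgeR quasi-likelihood test with Benjamini-Hochberg adjustment), where 0.459% of all models were (0.424% higher and 0.0353% lower). At an unadjusted p under 0.05 there were 9 members, or 6.47%, against 7.8% of all models. DESeq2 called 4, or 2.88%, against 2.34%, with 3 higher, against 1.76% of all models, and 1 lower, against 0.583%. The median log2 fold change of the members was 0.03, with quartiles of -0.11 and 0.20, and that of all models was -0.05. It turned to -0.03 with library totals in place of TMM and with limma on FPKM, and to -0.01 and -0.02 without REO replicates 2 and 3, and it was 0.08 without REO replicate 1.

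The largest positive differences with REO were those of Soltu.DM.04G002790 and Soltu.DM.12G007230. DESeq2 called both and edgeR neither. Soltu.DM.04G002790 was at 420.0, 1248 and 1119 TMM-scaled CPM with REO, at 127, 107 and 38.7 CPM in control tubers at day 40, and at 81.6, 279 and 170.0 CPM at day 0. Every REO library lay above every control library, and its log2 difference against control day 40 was 3.35 ± 0.63 (SE). This member was nearest to being dropped for a high REO level, at a ratio of 1.42. Soltu.DM.12G007230 was at 539, 2345 and 1725 TMM-scaled CPM with REO and at 58.1, 91.3 and 355 CPM in control tubers at day 40. These groups did not overlap, and the log2 difference was 3.19 ± 0.80 (SE), ranging from 2.75 to 4.37 over the alternatives.

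The largest negative differences with REO were smaller and came from overlapping groups. Soltu.DM.03G023620 was at 873, 460.3 and 498 TMM-scaled CPM with REO and at 1334, 466 and 2687 CPM in control tubers at day 40, a log2 difference of -1.29 ± 0.56 (SE). Soltu.DM.12G026390 on chromosome 12 was at 486, 657 and 1069 TMM-scaled CPM with REO and at 742, 3234 and 1272 CPM in control tubers at day 40, a log2 difference of -1.25 ± 0.51 (SE). In both, 1 control library set most of the distance, replicate 3 in the first and replicate 2 in the second. Without them the log2 differences were -0.56 and -0.43.

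Storage without the oil, control day 40 against control day 0, also had 0 members called by edgeR, where 0.844% of all models were (0.274% higher and 0.57% lower). At an unadjusted p under 0.05 there were 27, or 19.4%, against 18.4% of all models. DESeq2 called 14, or 10.1%, against 7.35%, of which 12 were lower at day 40, against 4.05% of all models, and 2 higher, against 3.3%. Without control day 40 replicate 2, edgeR called 4, or 2.88%, against 4.3% of all models. The median log2 fold change of the members was -0.29, and 40 of the 139 had a positive one, against a median of 0.04 over all models. That median rested on 1 library: it was -0.06 without day 0 replicate 3 and -0.44 without day 0 replicate 2. With library totals in place of TMM, and with day 0 replicate 3 kept, it was -0.15, where the median of all models was 0.15. Levels at day 0 and day 40 entered the rule, so these medians describe the members only.

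The largest positive storage difference was that of Soltu.DM.11G008460 on chromosome 11. It was at 4420.0, 2109.9 and 3883 TMM-scaled CPM in control tubers at day 40 and at 1356, 1298 and 1679 CPM at day 0. The groups did not overlap, and the log2 difference was 1.26 ± 0.32 (SE). With REO it stood at 4656, 4014 and 2769 CPM. Soltu.DM.10G018840 came next, at 116, 614 and 45.7 TMM-scaled CPM in control tubers at day 40 and 102, 250.1 and 100.5 CPM at day 0. These groups overlapped, and its log2 difference of 0.78 ± 0.91 (SE) was -0.91 without control day 40 replicate 2. The largest negative ones were those of Soltu.DM.12G007230, with a log2 difference of -3.02 ± 0.80 (SE), and Soltu.DM.09G025920, with -2.05 ± 0.67 (SE). Of these 4, DESeq2 called Soltu.DM.11G008460 and Soltu.DM.12G007230. Soltu.DM.12G007230 had 913, 927 and 2255 TMM-scaled CPM at day 0. Soltu.DM.09G025920 on chromosome 9 was at 132, 279.8 and 182 TMM-scaled CPM in control tubers at day 40 and at 529, 625 and 1296 CPM at day 0. In both the day 0 libraries lay above all 3 control libraries of day 40. With REO, Soltu.DM.09G025920 was at 88.4, 564 and 664 CPM, so 2 REO libraries reached the day 0 range and replicate 1 was below every other library.

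Storage under the oil, REO day 40 against control day 0, had 1 member called by edgeR, or 0.719%, where 2.61% of all models were. It was lower with REO, as were 1.22% of all models, and 1.39% were higher. At an unadjusted p under 0.05 there were 36, or 25.9%, against 18.5% of all models, and DESeq2 called 24, or 17.3%, against 9.07%, with 8 higher, against 4.16% of all models, and 16 lower, against 4.92%. The called member was Soltu.DM.03G023620, at 873, 460.3 and 498 TMM-scaled CPM with REO and 4891, 3555 and 6669 CPM at day 0. Every REO library lay below every day 0 library, with a log2 difference of -3.04 ± 0.60 (SE). It was also nearest to being dropped for a high day 0 level, at a ratio of 1.34. Its difference kept to between -3.39 and -2.77 over the alternatives. The count of called members was 0 without any one of REO replicates 1, 2 and 3, control day 40 replicate 1 and day 0 replicates 1 and 2. In those fits 0.399% to 2.11% of all models were called. Without control day 40 replicate 3 the count of called members was 1, or 0.719%, against 2.64% of all models. Without day 0 replicate 3 it was 2, or 1.44%, against 1.24% of all models, and these were 2 other members, both higher with REO, so Soltu.DM.03G023620 was not called there. Without control day 40 replicate 2 it was 10, or 7.19%, against 6.24% of all models. Among these 10 were Soltu.DM.03G023620, Soltu.DM.07G016220, Soltu.DM.11G008460 and Soltu.DM.12G026390.

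The other large differences from day 0 under the oil were not called by edgeR. DESeq2 called Soltu.DM.04G002790 and not the 2 described after it. Soltu.DM.04G002790 stood at 2.39 ± 0.60 (SE) on the log2 scale, with every REO library above every day 0 library. Soltu.DM.10G018840 stood at 2.11 ± 0.94 (SE), with 195.5, 1106 and 655 TMM-scaled CPM in REO tubers, and its groups overlapped. Soltu.DM.09G025850 on chromosome 9, of the same run as Soltu.DM.09G025920, was at 139, 299.5 and 695 TMM-scaled CPM with REO and 1226, 993 and 2358 CPM at day 0. These did not overlap, and the log2 difference was -2.01 ± 0.65 (SE). The median over the members was -0.22, that over all models was 0.00054, and it was -0.01 without day 0 replicate 3, -0.37 without day 0 replicate 2 and -0.13 without REO replicate 1. With library totals in place of TMM it was -0.14, where that of all models was 0.05, and with limma on log2(FPKM + 1) it was -0.13. Both storage comparisons share the day 0 libraries, and both comparisons with REO share the REO libraries.

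**Figure D5:**
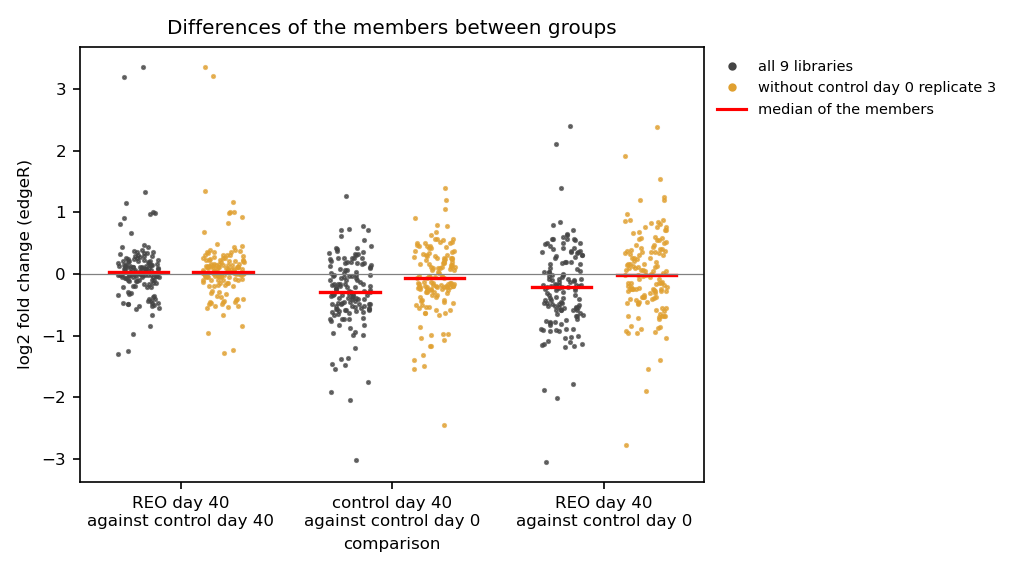
Log2 fold change (edgeR) of each of the 139 members in the 3 comparisons, with all 9 libraries and without control day 0 replicate 3, where red bars are medians. The medians against day 0 move from -0.29 to -0.06 and from -0.22 to -0.01 when that library is left out, and that of REO against control at day 40 is 0.03 and 0.04.

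By group mean of TMM-scaled CPM, 36 members were highest with REO, 13 in control tubers at day 40 and 90 at day 0. Without day 0 replicate 3 these numbers were 49, 25 and 65. The number of members highest at day 0 was thus smaller without that library. The matching shares of the other models were not computed, and group levels entered the rule, so these counts describe the members only.

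The edges of the rule passed between models of like level and, in places, between neighbours. The last model taken, Soltu.DM.05G001470, averaged 453.97 FPKM and the first left out, Soltu.DM.06G031500, 453.4 FPKM. The dropped row nearest to the limit for a high day 0 level, Soltu.DM.04G027270, had a ratio of 1.61, and that nearest to the limit for a high REO level, Soltu.DM.04G002760, had 1.63. The kept member Soltu.DM.04G002790 is a neighbour of Soltu.DM.04G002760, which was at 3278, 8558 and 8052 FPKM with REO, at 961, 929 and 322 FPKM in control tubers at day 40, and at 626, 1991 and 999 FPKM at day 0. Both rows were highest in REO replicates 2 and 3 and lowest in control day 40 replicate 3. On chromosome 3, the member Soltu.DM.03G018410 lies beside 6 dropped rows, with the 6 numbered from Soltu.DM.03G018450 to Soltu.DM.03G018670. It was at 649, 658 and 971 FPKM with REO, 938, 898 and 834 FPKM in control tubers at day 40, and 653, 725 and 738 FPKM at day 0. The most abundant of the 6, Soltu.DM.03G018650, was at 3218, 5559.5 and 8710.0 FPKM with REO, 4313, 5274 and 5146 FPKM in control tubers at day 40, and 21674, 21287 and 26686 FPKM at day 0. The day 0 libraries thus stood highest in the dropped row, and in the member beside it they lay within the range of the REO libraries.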

How the data were processed

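The 9 libraries were grouped by their labels into 3 groups of 3. Per the labels' protocols, polyadenylated RNA was captured on oligo(dT) beads, copied into cDNA from random primers and sequenced without any described strand-marking step, so overlapping antisense models may share reads. The authors deposited whole-number counts per gene model and a second table, read as FPKM because its ratio to the counts is a gene constant times a library constant in nearly all members. Reads were handled with HISAT2 2.1.0, per the submitters' processing notes, which also name DESeq2. What counted the reads, and on which build and annotation, is not given in the sources. No column lacked a sample (0 did).

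The counts were filtered with filterByExpr, scaled with TMM and fitted with 1 quasi-likelihood model over the 9 libraries in edgeR 4.0.16 (R 4.3.3), which was tested on simulated data. Standard errors come from the F statistic. Alternatives used DESeq2 1.42.0 and limma 3.58.1 (log2 of FPKM plus 1 or 0.1), other scalings and filters, a replicate block, only the 6 libraries compared, and leaving out each library. Means of at least 10 CPM define the other models used for comparison.

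Members, lists and naming rules were chosen with earlier results of these data known. Named were the 12 most abundant members, the 2 largest differences in each direction per comparison, the 3 steadiest and 3 most variable, rows at each limit of the rule, and runs of 3 or more neighbours. Soltu.DM.03G018410 and the dropped rows beside members were named after their values were seen. Intervals are SD or SE over libraries, and depth limits only counting error.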

Additional observations from a re-analysis of the deposited data

How the results depend on the processing

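Counts of called models moved with the test and with single libraries, and the cause was not tested. For REO against control at day 40, the 0 members called became 4 with DESeq2 and were 0 in each fit without 1 library. All called models were 104, and 530 with DESeq2, 40 with only the 6 libraries compared and 23 to 175 without 1 library. For control day 40 against day 0, the 0 members became 14 with DESeq2 and 0 to 4 without 1 library. All called models were 191, and 1664 with DESeq2, 288 with limma on log2(FPKM + 1) and 0 to 985 without 1 library. With only the 6 libraries compared, edgeR called 0. In that edgeR fit, 2892 of 21987 models had an unadjusted p under 0.05, and 20 of the 139 members did. For REO day 40 against day 0, the 1 member became 24 with DESeq2, 4 with library size alone (2.88%, against 2.44% of all models), 3 among models with a mean of at least 10 CPM (2.16%, against 3.64%), 10 with only the 6 libraries compared (7.19%, against 5.53%), 4 with limma on log2(FPKM + 1) or log2(FPKM + 0.1) (2.88%, against 3.23% and 3.04%) and 0 to 10 without 1 library. All called models were 590, and 2054 with DESeq2, 1208 with only the 6 libraries compared and 93 to 1430 without 1 library. Scaling moved the split of calls in storage without REO from 62 higher and 129 lower to 63 and 65 with library size alone.

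With the replicate block, all called models were 44 (0.194%) for REO against control at day 40, 8 (0.0353%) for control day 40 against day 0 and 300 (1.33%) for REO day 40 against day 0. Members called were 0, 0 and 1 (0.719%). Libraries of the same number did not deviate together throughout (correlations of deviations from group means of -0.557 to 0.328). Deviations within a group must offset each other, so these values cannot tell whether libraries of the same number share a batch.

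The members' share was 24.1%, 24.9% and 26.1% for REO day 40, control day 40 and control day 0 as a share of FPKM, 14.4%, 15.1% and 17.0% with the top 100 rows, and 20.6%, 21.2% and 23.3% with the top 200. At day 0 it was 24.995% before the drop and 22.9% with a drop ratio of 2. Without 1 library it was 17.0% to 19.2%, 17.8% to 19.2% and 19.7% to 21.2%. Of 1197 recomputed differences of named members, 28 moved by more than their standard error. The only difference that edgeR called in the main fit, that of Soltu.DM.03G023620 between REO day 40 and day 0, kept its sign. Uncalled differences turned theirs in some settings, among them that of Soltu.DM.07G027620 between REO day 40 and day 0, in 8 settings. The report's medians of the members under other settings were chosen after the data were seen. Without control day 40 replicate 2, REO replicate 1 or day 0 replicate 3, likewise chosen, 66, 67 and 75 members had a highest library under 2 times the lowest, and 14, 18 and 18 at least 4 times.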
